A study of Homo sapiens with 16 samples.

Results

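The carriers that move monoamines and the toxin MPP (1-methyl-4-phenylpyridinium) across membranes were followed in SH-SY5Y cells, a human neuroblastoma line, by RNA sequencing. Their members were chosen by gene symbol: SLC6A2, SLC29A4 and SLC22A3 at the plasma membrane, and SLC18A1 and SLC18A2 on vesicles. Of these 5 genes, 4 were analysed, out of 19898 genes in all, and SLC22A3 is not analysed here. The 4 measured members all passed the filter on low values, which asked for a normalised count of 10 or more in at least 4 libraries and left 16984 genes. The 16 libraries formed 4 groups of 4: cultures given 1 mM MPP in a 3D silk-collagen scaffold, cultures given 1 mM MPP in 2D dishes, untreated 3D cultures and untreated 2D cultures. All cultures were differentiated for 15 days towards cells that the labels call dopamine-like neurons, and MPP was present for 48 h from day 13. All libraries came from a single cell line for which the labels name no engineered allele, and nothing in them says whether replicates were separate differentiations, so p-values measure the spread between these libraries only. The collection step also differed with culture: cells in dishes were detached with Accutase, whereas scaffolds were placed whole in tubes, and its part in any 3D against 2D difference cannot be told apart from that of the culture.

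Monoamine neurons recapture released transmitter with sodium-driven carriers of the SLC6 family at the plasma membrane and then load it into vesicles with proton-driven carriers of the SLC18 family. MPP resembles the monoamines enough to travel by the same carriers. It enters cells through the dopamine and noradrenaline transporters and through low-affinity, high-capacity carriers of organic cations. Once inside, it is either taken up into vesicles, away from the cytosol, or reaches mitochondria, where it inhibits complex I of the respiratory chain.

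Depth and cell identity touch all results below. Libraries of MPP-treated 3D cultures held 36554574 to 38414859 recovered reads, those of MPP-treated 2D cultures 30399672 to 41813620, those of untreated 3D cultures 24589435 to 34658873 and those of untreated 2D cultures 34643854 to 46359070. In 3D, mitochondrial mRNA took 1.04 to 1.52% of the reads of MPP-treated libraries, against 3.30 to 6.84% of those of untreated libraries. In 2D these shares were 0.791 to 0.949% with MPP, against 7.72 to 11.6% without. This share moved with treatment in both formats. With values rescaled to equal nuclear totals, each call of a member was kept except that of SLC18A2 with MPP in 2D. Of 12 defining markers of midbrain dopamine neurons, 6 were measured, SLC18A2 among them. The enzymes TH and DDC were present in every library, at 319 to 6616 and 2166 to 14838 normalised counts, while the midbrain factor NR4A2 lay between 0 and 11.2 and PITX3 between 18.4 and 88.0. All 9 noradrenergic and sympathetic markers were present in every library, DBH at 82395 to 160587 and PHOX2A at 33737 to 68194. The member SLC6A2 is among these 9, at 99.3 to 2791, and was low in 3D as described below. TH and DDC were thus present together with all 9 noradrenergic and sympathetic markers, and NR4A2 was near 0. The endothelial marker PECAM1 was at 0 in 13 libraries and the glial factor SOX10 at 0 in 12. The mast cell tryptases TPSAB1 and TPSB2 reached 2069 and 1645 in 3D and were at 0 in all 8 libraries from 2D dishes, while the mast cell enzyme HDC stayed at 7.85 or lower. KIT, the other mast cell marker measured, was present in every library of both formats, at 183 to 347. In 2D dishes the sum given next was therefore nearly all KIT. The summed level of the 4 mast cell markers measured, of 7 listed, was 1776 to 1992 with MPP in 3D, against 2676 to 3900.3 in untreated 3D libraries, and 226 to 269 with MPP in 2D, against 240.3 to 351 in untreated 2D libraries. Their part in the 3D against 2D results was not tested. In bulk RNA, fewer cells of a type and less RNA of a gene per cell cannot be told apart.

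The members behaved in 4 separate ways. SLC6A2 was low in all 3D cultures, SLC18A1 was by far highest in untreated 3D cultures, SLC18A2 was highest in 3D cultures given MPP, and SLC29A4 was lower after MPP in both formats. Values below are normalised read counts, that is, reads divided by a size factor of the library. Changes are differences of log2(normalised count + 1) from a single limma fit of all 4 groups, and a change was called where its p, adjusted by Benjamini-Hochberg over the 16984 genes, was under 0.05.

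**Figure D1:**
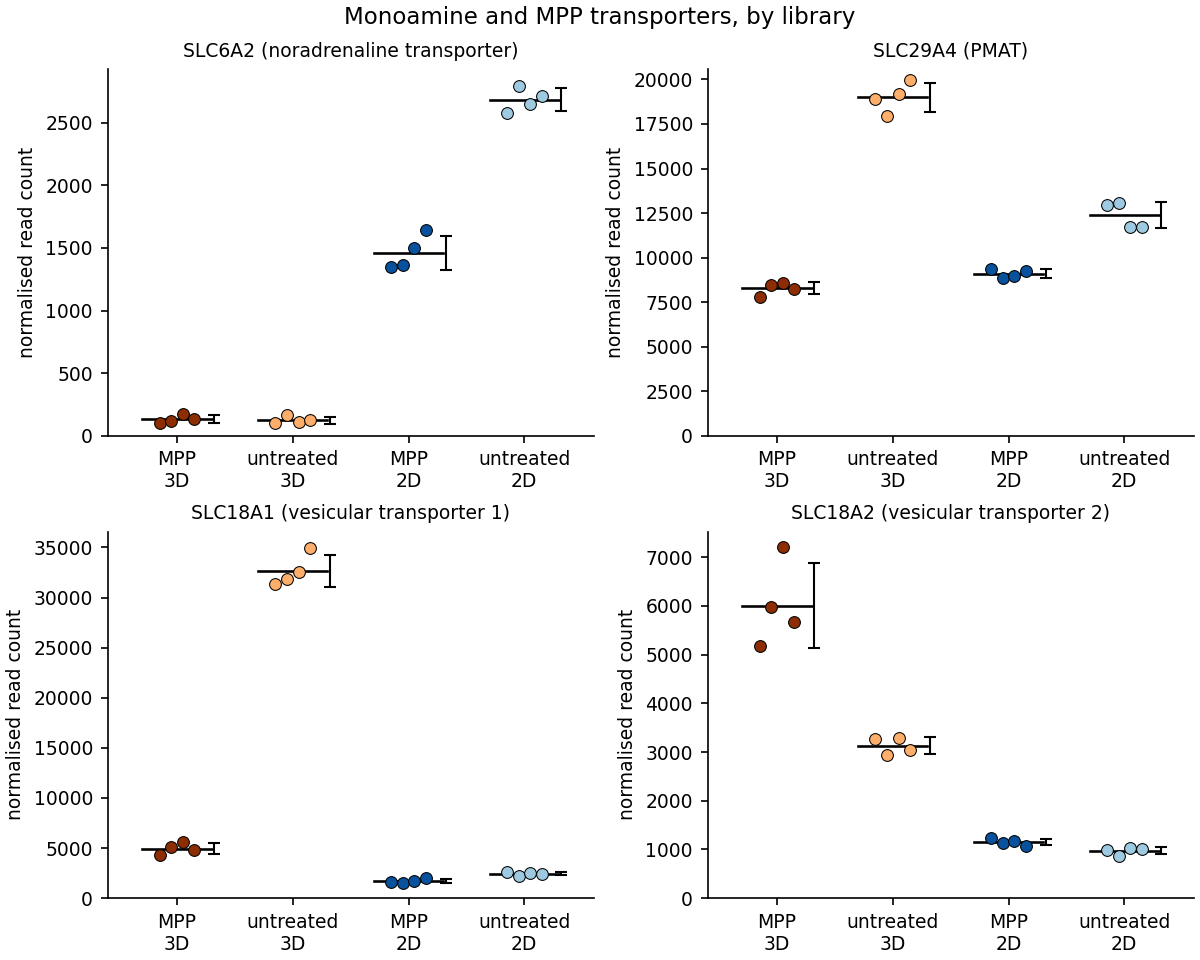
Normalised read counts of the 4 measured members in each library (points), with the group mean (line) and SD (bar, n = 4), in MPP-treated and untreated 3D and 2D cultures. SLC6A2 is near the bottom of its panel in all 8 libraries from 3D, SLC18A1 stands far above the rest in untreated 3D, and SLC18A2 is highest in MPP-treated 3D.

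SLC6A2 encodes the noradrenaline transporter, which recaptures noradrenaline and dopamine and carries MPP into cells. The gene lies on the plus strand of chromosome 16 (GRCh38, chr16:55655604-55706192) in 17 exon blocks, and 977 of its 5463 exon bases also belong to AC136621.1, a same-strand transcript that is not analysed here. In 3D it had 99.3, 119, 172 and 138 normalised counts in MPP-treated libraries, against 101, 164, 112 and 127 in untreated libraries. In 2D it had 1347, 1365, 1498 and 1640.2 in MPP-treated libraries, against 2577, 2791, 2648 and 2709.8 in untreated libraries. Every library from 3D was thus far below every library from 2D, and in 3D the treated and untreated libraries overlapped. The recovered reads behind the 3D values were 110 to 186 with MPP and 80 to 140.0 without. With MPP in 3D the log2 change of SLC6A2 was 0.06 (95% interval -0.25 to 0.37, limma adjusted p = 0.792) and was not called. In 2D it fell with MPP by 0.88 (SE 0.15, limma adjusted p = 0.000100), with a mean of 1462 ± 136 in MPP-treated against 2682 ± 90.9 in untreated dishes (SD, n = 4 each). The sign of the change in 3D turned when MPP-treated 3D replicate 3 (-0.08) or untreated 3D replicate 1 (-0.04) was left out. The MPP effect in 3D minus that in 2D was 0.94 (SE 0.21, limma adjusted p = 0.00360).

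Between formats SLC6A2 had the widest gap of the members. Without MPP its log2 change in 3D over 2D was -4.42 (SE 0.15, limma adjusted p = 2.87e-16), at 126 ± 27.5 in 3D against 2682 ± 90.9 in 2D (SD, n = 4 each). Untreated 2D cultures held 21.2 times the level of untreated 3D cultures, and only 1 of the 16984 genes had a lower log2 change. With MPP the gap was -3.48 (SE 0.15, limma adjusted p = 4.59e-14), and 13 genes had a lower change. Per 1000 exon bases, the scale on which genes are compared here, SLC6A2 averaged 24.2 ± 5.69 in MPP-treated 3D and 268 ± 24.9 in MPP-treated 2D cultures, against 23.1 ± 5.03 in untreated 3D and 491 ± 16.6 in untreated 2D cultures. From the top of 18522 genes ranked per length, it stood at place 12968 in MPP-treated 3D and 5710 in MPP-treated 2D, against 13069 in untreated 3D and 3317 in untreated 2D cultures.

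SLC29A4 encodes PMAT, the plasma membrane monoamine transporter, a low-affinity carrier of dopamine, serotonin and MPP that is driven by membrane potential. It lies on the plus strand of chromosome 7 (GRCh38, chr7:5274369-5306870) in 12 exon blocks, and 81 of its 5811 exon bases overlap the gene TNRC18 on the opposite strand. RefSeq places a start of this gene further downstream, and the promoter there is shown as the regulatory sequence of the member that was abundant in all 4 groups. It spans 250 bases before to 50 bases after that start at chr7:5282693-5282992 on the plus strand (RefSeq, GRCh38.p14), and capitals mark the letters GCGTG, a core of the hypoxia response element, 16 bases before the start.
SLC29A4: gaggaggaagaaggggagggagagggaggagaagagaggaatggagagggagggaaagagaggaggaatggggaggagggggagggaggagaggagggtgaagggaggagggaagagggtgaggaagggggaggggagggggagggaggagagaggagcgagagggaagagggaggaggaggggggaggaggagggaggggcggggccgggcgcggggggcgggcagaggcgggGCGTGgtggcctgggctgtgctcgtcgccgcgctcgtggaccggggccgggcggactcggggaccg
The stretch is 72.0% G and C, against a median of 58.7% over 35116 RefSeq promoters of the same length. ACGTG or GCGTG, read on both strands, occurred in 17012 of them (48.4%), so such a match is common.

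In 3D, SLC29A4 had 7811, 8459, 8577 and 8264 normalised counts in MPP-treated libraries, against 18889, 17971, 19175 and 19961 in untreated libraries. In 2D it had 9381, 8831, 8982 and 9241 in MPP-treated libraries, against 12940.0, 13085, 11738 and 11746 in untreated libraries. Treated libraries were below untreated ones in both formats, with no overlap. SLC29A4 fell with MPP by 1.20 in 3D (SE 0.06, limma adjusted p = 5.29e-13) and by 0.44 in 2D (SE 0.06, limma adjusted p = 5.59e-06). The fall was larger in 3D by 0.76 on the log2 scale: the difference of the effects was -0.76 (SE 0.08, limma adjusted p = 8.59e-07). Without MPP, 3D cultures had 0.62 more than 2D cultures (SE 0.06, limma adjusted p = 1.75e-08), 18999 ± 821 against 12378 ± 736 normalised counts (SD, n = 4 each). With MPP the formats did not overlap, at 8278 ± 336 in 3D against 9108 ± 248 in 2D, but the difference of -0.14 (95% interval -0.26 to -0.02) missed the threshold (limma adjusted p = 0.0690).

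Of the plasma membrane members analysed, SLC29A4 made up nearly all of the summed mRNA level in 3D. SLC22A3 is not part of that sum. Per 1000 exon bases, SLC29A4 averaged 1424 ± 57.9 in MPP-treated 3D and 1567 ± 42.7 in MPP-treated 2D, against 3269 ± 141 in untreated 3D and 2130.0 ± 127 in untreated 2D cultures. Its place from the top of the 18522 genes was 884 in MPP-treated 3D and 785 in MPP-treated 2D, against 296 in untreated 3D and 487 in untreated 2D cultures. SLC6A2 made up 1.66 ± 0.33% of the sum of SLC6A2 and SLC29A4 in MPP-treated 3D and 14.6 ± 1.14% in MPP-treated 2D, against 0.705 ± 0.18% in untreated 3D and 18.8 ± 0.99% in untreated 2D cultures (SD, n = 4 each). The share in every 3D library was thus below that in every 2D library. The sum itself was 1449 in MPP-treated 3D and 1835 in MPP-treated 2D, against 3293 in untreated 3D and 2621 in untreated 2D cultures, per 1000 exon bases. It was therefore smaller with MPP in both formats.

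SLC18A1 encodes VMAT1, the vesicular monoamine transporter of chromaffin and other neuroendocrine cells, whose rat counterpart was isolated through the resistance to MPP that it gives. The gene lies on the minus strand of chromosome 8 and shares no exon base with another gene in the annotation. In 3D it had 4261, 5078, 5616 and 4827 normalised counts in MPP-treated libraries, against 31306, 31852, 32505 and 34919 in untreated libraries. In 2D it had 1657, 1562, 1720.4 and 1964 in MPP-treated libraries, against 2587, 2248, 2509.9 and 2389 in untreated libraries. The untreated 3D libraries stood alone, and no pair of groups overlapped. SLC18A1 fell with MPP by 2.73 in 3D (SE 0.08, limma adjusted p = 6.84e-17), so that untreated scaffolds held 6.60 times the level of treated ones. In 2D it fell by 0.50 (SE 0.08, limma adjusted p = 6.10e-05). The difference of the MPP effects, 3D minus 2D, was -2.23 (SE 0.12, limma adjusted p = 5.19e-12).

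Without MPP, SLC18A1 was 3.75 higher in 3D than in 2D (SE 0.08, limma adjusted p = 1.37e-19), a ratio of 13.4. The means were 32645 ± 1593 in 3D against 2433 ± 148 in 2D (SD, n = 4 each), and 114 of the 16984 genes had a higher change. With MPP the gap between formats was 1.52 (SE 0.08, limma adjusted p = 1.89e-12), at 4945 ± 563 in 3D against 1726 ± 172 in 2D. Per 1000 exon bases SLC18A1 averaged 1265 ± 144 in MPP-treated 3D and 441 ± 43.9 in MPP-treated 2D, against 8349 ± 407 in untreated 3D and 622 ± 37.8 in untreated 2D cultures. Among 18522 genes it stood at place 1051 from the top in MPP-treated 3D and 3686 in MPP-treated 2D, against 85 in untreated 3D and 2492 in untreated 2D cultures.

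SLC18A2 encodes VMAT2, the vesicular carrier of monoamine neurons in the brain, which loads dopamine, noradrenaline, serotonin and histamine and also takes MPP into vesicles. The gene lies on the plus strand of chromosome 10 (GRCh38, chr10:117241073-117279430) in 15 exon blocks. Its promoter is shown as the regulatory sequence of the only member that rose with MPP. The stretch runs from 250 bases before to 50 bases after the RefSeq start, at chr10:117240864-117241163 on the plus strand (GRCh38.p14). Capitals mark CACGC, the reverse complement of the hypoxia response element core GCGTG, 185 bases before the start, and TGACGTCA, the full cAMP response element, 48 bases before it.
SLC18A2: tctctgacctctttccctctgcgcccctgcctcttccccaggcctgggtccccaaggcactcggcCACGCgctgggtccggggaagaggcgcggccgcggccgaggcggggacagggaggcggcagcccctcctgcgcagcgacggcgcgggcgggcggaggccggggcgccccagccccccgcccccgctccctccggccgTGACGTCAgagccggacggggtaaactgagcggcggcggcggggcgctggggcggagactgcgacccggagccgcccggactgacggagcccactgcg
The stretch is 78.7% G and C. TGACGTCA, which reads the same on both strands, occurred in 649 of the 35116 promoters (1.85%), and the marked motifs do not overlap. RefSeq promoters are shown for 2 members only, and a match of letters is a description, not a binding site.

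In 3D, SLC18A2 had 5177, 5977, 7211 and 5664 normalised counts in MPP-treated libraries, against 3267, 2929, 3279.8 and 3039.7 in untreated libraries. In 2D it had 1226, 1142, 1179 and 1064 in MPP-treated libraries, against 998, 862, 1033 and 1008 in untreated libraries. The groups did not overlap, though in 2D the lowest treated library lay close to the highest untreated library. SLC18A2 rose with MPP in 3D by 0.93 (SE 0.09, limma adjusted p = 3.90e-08), 6007 ± 867 against 3129 ± 173 (SD, n = 4 each), a ratio of 1.92. In 2D it rose by 0.24 (SE 0.09, limma adjusted p = 0.0390), 1153 ± 68.5 against 975 ± 76.6. The rise was larger in 3D, with a difference of 0.69 (SE 0.13, limma adjusted p = 4.61e-04). The call in 2D was weak: the limma adjusted p was 0.110 with equal nuclear totals and the edgeR adjusted p was 0.0510 on recovered reads. The limma adjusted p was 0.110, 0.0680 and 0.0852 without MPP-treated 2D replicate 1, 2 and 3, and 0.0573, 0.143 and 0.0515 without untreated 2D replicate 1, 2 and 4.

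Between formats, SLC18A2 was 1.68 higher in 3D than in 2D without MPP (SE 0.09, limma adjusted p = 8.22e-13) and 2.37 higher with MPP (SE 0.09, limma adjusted p = 4.49e-15). With MPP, 123 of the 16984 genes had a higher change. Per 1000 exon bases SLC18A2 averaged 1449 ± 209 in MPP-treated 3D and 278 ± 16.5 in MPP-treated 2D, against 755 ± 41.7 in untreated 3D and 235 ± 18.5 in untreated 2D cultures. These levels carry a limit, since 2157 of the 4145 exon bases of SLC18A2 lie opposite exons of PDZD8, which encodes an endoplasmic reticulum lipid transfer protein, and 105 and 64 lie opposite antisense RNAs. Whether counting used strand is not stated in the labels or notes, so reads in the shared bases cannot be assigned with certainty. PDZD8, chosen for this overlap after its values were seen, had a log2 change with MPP of 0.29 in 3D (limma adjusted p = 0.0494) and 0.24 in 2D (limma adjusted p = 0.0972). The call in 3D was lost in 12 of the alternatives, leave-one-out included. It was 0.43 higher in 3D than in 2D without MPP (limma adjusted p = 0.00295) and 0.48 higher with it (limma adjusted p = 0.00164). Its difference of MPP effects was 0.05 (limma adjusted p = 0.892). The value of SLC18A2 was the larger in each of these comparisons except MPP in 2D, where both were 0.24.

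**Figure D2:**
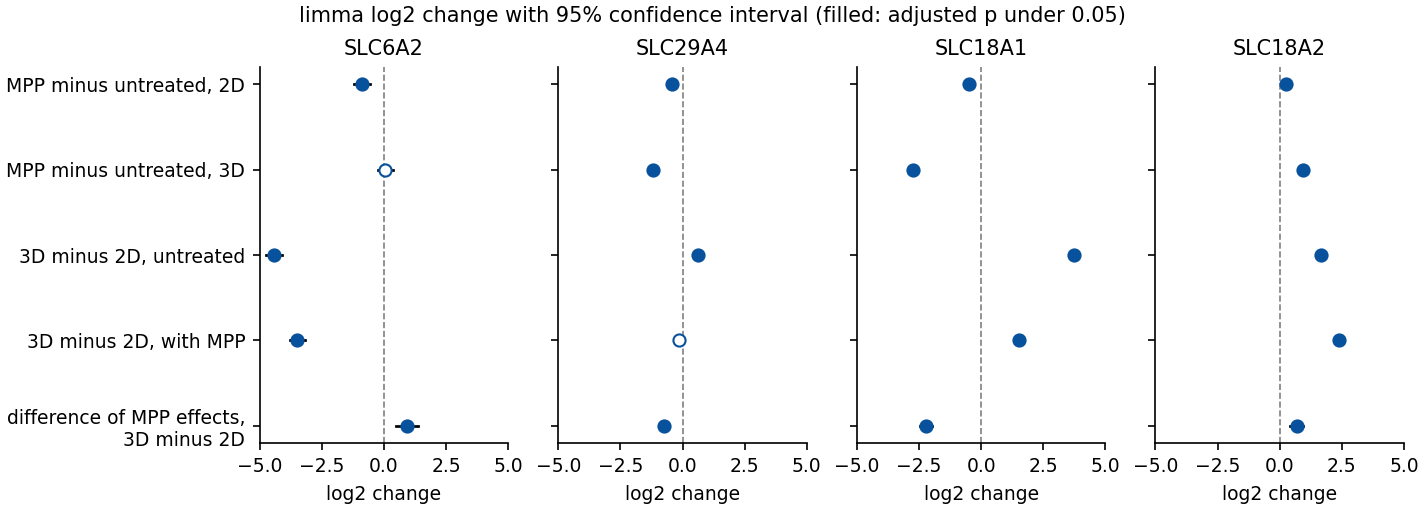
limma log2 changes of the 4 members (points) with 95% confidence intervals (lines) in the 5 comparisons, filled where the adjusted p is under 0.05. SLC6A2 and SLC18A1 have the widest changes between 3D and 2D without MPP, -4.42 and 3.75, in opposite directions, and SLC18A2 alone is right of 0 in all 5 comparisons.

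Set against all genes, counts of called members were as follows. With MPP in 3D, 3 of 4 members were called, 1 higher and 2 lower, where 34.6% of the tested genes were called, 17% higher and 17.6% lower. With MPP in 2D, all 4 were called, 1 higher and 3 lower, beside 34.5% of all genes, 17.7% higher and 16.9% lower. Between untreated 3D and 2D cultures, all 4 were called, 3 higher and 1 lower, beside 46.1%, 23.2% higher and 23% lower. Between the formats with MPP, 3 of 4 were called, 2 higher and 1 lower, beside 38.9%, 19% higher and 19.9% lower. For the difference of the MPP effects all 4 were called, 2 higher and 2 lower, beside 15.3%, 7% higher and 8.32% lower. With 4 genes, these counts describe the members and are not a test of the set. Within MPP-treated 3D cultures, replicate 1 was lowest and replicate 3 highest for each of the 4 members. This order was not particular to them. It also held for DBH, DDC, GCH1, EPAS1, ISL1 and HAND1, and did not hold for TH or ABCB1. Its share over all genes was not counted.

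The balance of the vesicular members shifted. SLC18A2 made up 53.4, 52.6, 54.8 and 52.5% of the sum of SLC18A1 and SLC18A2 per exon length in MPP-treated 3D libraries, against 8.96, 7.98, 8.69 and 7.59% in untreated 3D libraries. In 2D the share was 41.1, 40.8, 39.3 and 33.8% in MPP-treated libraries, against 26.7, 26.6, 28.0 and 28.5% in untreated libraries. The share was higher in treated than in untreated libraries in both formats without overlap. On this scale it was narrowly the larger share of the pair in MPP-treated 3D, at a mean of 53.3%. If all SLC18A2 reads came from its 1988 exon bases that are not shared with PDZD8, the mean share would be 70.4% in MPP-treated 3D and 56.8% in MPP-treated 2D, against 15.9% in untreated 3D and 44.1% in untreated 2D cultures. The order of the groups stayed the same under that reading, but SLC18A2 would then be the larger of the pair in MPP-treated 2D too. Any reads of PDZD8 counted as SLC18A2 would instead lower its share. Their number is not known, so which of the pair was larger in MPP-treated 3D is not settled. The sum of the pair was 2714 ± 350 in MPP-treated 3D against 9104 ± 397 in untreated 3D cultures, and 719.5 ± 34.5 in MPP-treated 2D against 858 ± 53.8 in untreated 2D cultures (SD, n = 4 each). The summed vesicular level was thus below the untreated level after MPP, although SLC18A2 rose.

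**Figure D3:**
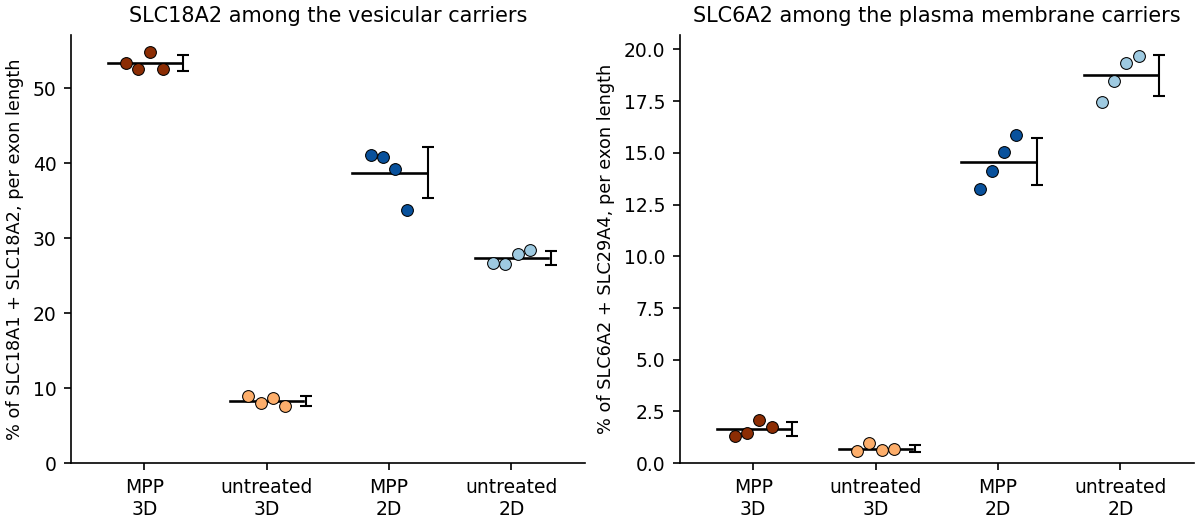
Left, share of SLC18A2 in the summed level of SLC18A1 and SLC18A2; right, share of SLC6A2 in the summed level of SLC6A2 and SLC29A4, both in percent per exon length, by library (points) with group mean (line) and SD (bar, n = 4). The left panel has means of 53.3% in MPP-treated 3D and 8.31% in untreated 3D cultures, and the right panel stays under 2.1% in every 3D library.

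The mRNA levels of a vesicular carrier and of the noradrenaline transporter were also set against each other. The log2 ratio of SLC18A2 to SLC6A2 per exon length was 5.92 ± 0.18 in MPP-treated 3D and 0.06 ± 0.21 in MPP-treated 2D, against 5.05 ± 0.38 in untreated 3D and -1.06 ± 0.16 in untreated 2D cultures (SD, n = 4 each). In scaffolds SLC18A2 exceeded SLC6A2 in every library. In untreated dishes SLC6A2 exceeded SLC18A2 in every library on this scale. With the 1988 unshared exon bases of SLC18A2 in place of all 4145, the mean log2 ratio would be 6.98 in MPP-treated 3D and 1.12 in MPP-treated 2D, against 6.11 in untreated 3D cultures. In untreated 2D libraries it would be 0.09, -0.24, 0.10 and 0.03, so that which of the 2 genes was higher there depends on the length used. The 3D values rest on 80 to 186 reads of SLC6A2 per library.

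Other carriers of monoamines, organic cations and related substrates were counted as a list. Of its 13 genes, SLC6A3 and SLC22A2 are not analysed here and 11 were tested. Over all genes, 34.6% were called with MPP in 3D, 34.5% with MPP in 2D, 46.1% between untreated formats and 38.9% between formats with MPP. With MPP in 3D, 4 rose and 2 fell, with a median log2 change of 0.20 against 0.00332 over all genes. That list median was the change of SLC47A2, a low-count gene that was not called (limma adjusted p = 0.742). With MPP in 2D, 3 rose and 2 fell (median 0.07 against 0.02). Without MPP, 3 were higher and 3 lower in 3D than in 2D (median -0.17 against 0.01), and with MPP 2 were higher and 3 lower (median -0.33 against 0.00877). Among the lower ones without MPP, SLC18B1 (-2.77, limma adjusted p = 0.0180) lay near the floor. It had 0 to 8 reads per library in untreated 3D and 7 to 20 in untreated 2D, with overlapping values. For the difference of the MPP effects, 3 were called, all lower: SLC22A4, SLC18A3 and SLC29A2, where 15.3% of all genes were called. The list median there was 0.14, against -0.02 over all genes. The low-count genes SLC6A4 (1.13), SLC18B1 (0.65) and SLC47A2 (0.25) all lay above that median, and none of them was called. The median therefore cannot show whether the list as a whole leaned either way. The call of SLC22A4 was lost without MPP-treated 3D replicate 3, MPP-treated 2D replicate 2 or untreated 2D replicate 4 (limma adjusted p = 0.0512 to 0.0575). Of the rises in 2D, that of SLC22A5, the carnitine carrier (0.36, limma adjusted p = 0.0409), was lost in 11 alternatives, among them those without MPP-treated 2D replicate 2, 3 or 4 or untreated 2D replicate 1, 2 or 4 (limma adjusted p = 0.0602 to 0.122).

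The efflux pump P-glycoprotein, encoded by ABCB1, was higher with MPP in both formats. It averaged 7133 ± 311 in MPP-treated 3D against 5293 ± 529 in untreated 3D, and 19828 ± 1146 in MPP-treated 2D against 15509 ± 598 in untreated 2D cultures (SD, n = 4 each). The MPP change was 0.43 in 3D (limma adjusted p = 3.94e-05) and 0.35 in 2D (limma adjusted p = 3.91e-04). Without MPP it was 1.56 lower in 3D than in 2D, the same direction as SLC6A2. SLC47A1, the proton-coupled efflux carrier MATE1, which exports MPP, averaged 107 ± 49.0 in MPP-treated 3D against 39.2 ± 16.4 in untreated 3D cultures and rose by 1.39 (SE 0.31, limma adjusted p = 0.00111). It had 67 to 176 reads per library in MPP-treated 3D and 16 to 59 in untreated 3D cultures, with overlapping values. In 2D it averaged 244 ± 62.3 with MPP against 184 ± 40.3 without, and the change of 0.39 was not called (limma adjusted p = 0.341).

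SLC18A3, the vesicular acetylcholine transporter and closest relative of the vesicular members in the list, averaged 4875 ± 439 in MPP-treated 3D against 7813 ± 635 in untreated 3D cultures, a fall of 0.68 (limma adjusted p = 8.06e-07). In 2D its change was -0.22 (limma adjusted p = 0.0392), 3814 ± 150.0 with MPP against 4448 ± 433 without. That call was lost in 8 alternatives: with equal library totals (limma adjusted p = 0.289), with the replicate block (limma adjusted p = 0.0520), and without MPP-treated 2D replicate 1, 2 or 4 or untreated 2D replicate 1, 2 or 3 (limma adjusted p = 0.0589 to 0.148). SLC18A3 was higher in 3D than in 2D by 0.81 without MPP and by 0.35 with it, the direction of both vesicular members. SLC29A2, an equilibrative nucleoside transporter and relative of SLC29A4, went the other way from it in both formats. With MPP it rose by 1.09 in 2D (SE 0.12, limma adjusted p = 3.78e-07), 2335 ± 152 against 1102 ± 137, and by 0.33 in 3D (limma adjusted p = 0.0374). The call in 3D was lost in 10 alternatives, among them those without any 1 of the MPP-treated 3D replicates or without untreated 3D replicate 2 or 3 (limma adjusted p = 0.05005 to 0.159). SLC29A3, a nucleoside carrier of lysosomes, fell by 0.53 with MPP in 2D (limma adjusted p = 0.00469). SLC22A4, a carrier of ergothioneine and organic cations, changed by -0.89 with MPP in 3D (limma adjusted p = 0.0170), a call lost without MPP-treated 3D replicate 1 or 3 (limma adjusted p = 0.0652 and 0.0606). SLC22A5 was 0.66 higher in 3D than in 2D without MPP (limma adjusted p = 3.26e-04). The serotonin transporter SLC6A4 and the efflux carrier SLC47A2 were low in every group, with means from 3.41 to 27.6, and missed the threshold of limma in all 5 comparisons. For SLC6A4 the difference between untreated 3D and 2D cultures (-1.53, limma adjusted p = 0.181) passed it without untreated 3D replicate 4 (limma adjusted p = 0.0375).

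**Figure D4:**
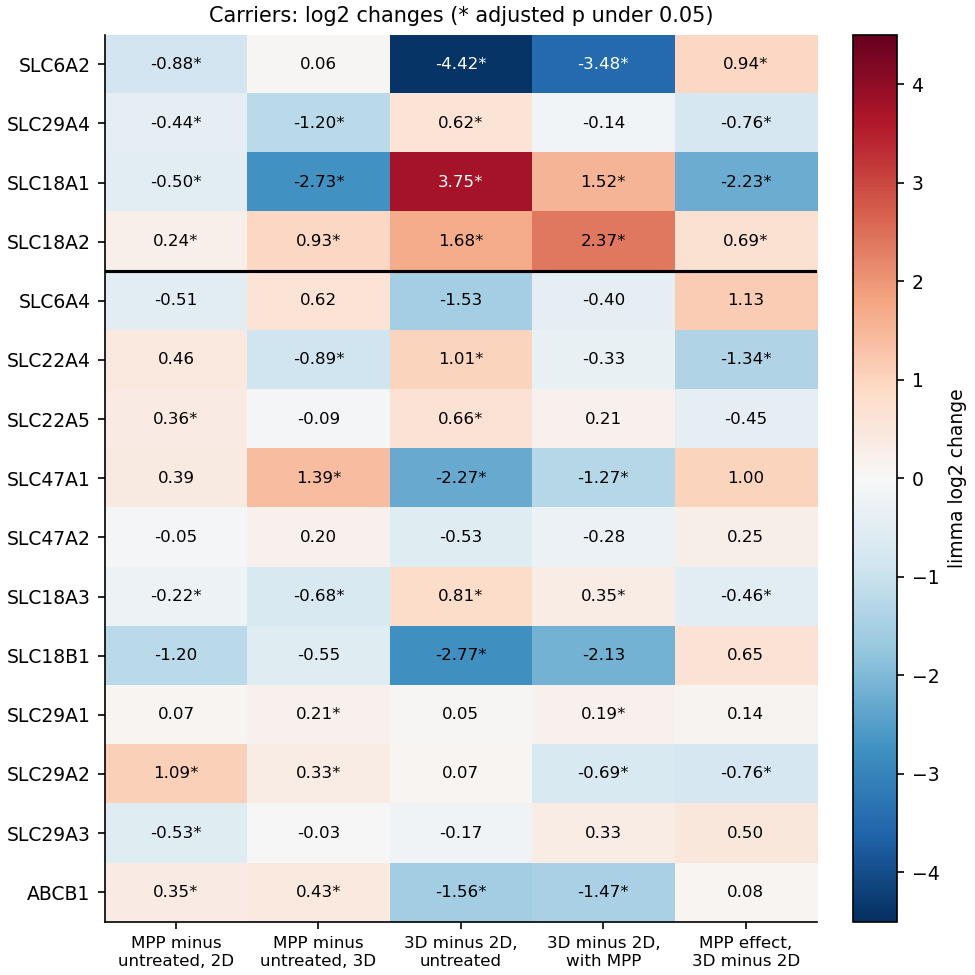
limma log2 changes of the 4 members (above the line) and the 11 other carriers tested (below it) in the 5 comparisons, red for higher and blue for lower, with an asterisk at an adjusted p under 0.05. ABCB1 has the same sign as SLC6A2 between formats (-1.56 and -1.47), and SLC18A3 the same sign as SLC18A1 throughout.

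The enzymes that make catecholamines supply substrate to the vesicular carriers. TH, tyrosine hydroxylase, the first enzyme of catecholamine synthesis, averaged 4241 ± 237 in MPP-treated 3D against 5585 ± 823 in untreated 3D, and 595 ± 91.0 in MPP-treated 2D against 341 ± 25.8 in untreated 2D cultures (SD, n = 4 each). It fell by 0.39 with MPP in 3D (limma adjusted p = 0.00661) and rose by 0.79 in 2D (limma adjusted p = 5.27e-06). Its 3D against 2D difference of 4.02 without MPP (limma adjusted p = 2.21e-18) had the direction of SLC18A1. DDC, the decarboxylase that makes dopamine, averaged 2851 ± 602 in MPP-treated 3D against 14143 ± 567 in untreated 3D cultures and fell by 2.33 (SE 0.10, limma adjusted p = 5.47e-14). Its level in 2D was 2301 ± 113 with MPP against 2745 ± 154 without, a change of -0.25 that was not called (limma adjusted p = 0.0560). As with SLC18A1, the untreated 3D libraries of DDC stood above all others. DBH, which turns dopamine into noradrenaline inside vesicles, averaged 94225 ± 9934 in MPP-treated 3D and 128846 ± 6458 in MPP-treated 2D, against 115058 ± 8759 in untreated 3D and 148729 ± 8378 in untreated 2D cultures. Its changes were -0.29 with MPP in 3D (limma adjusted p = 0.00808) and -0.21 in 2D (limma adjusted p = 0.0544), and both turned positive under quantile normalisation (0.19 and 0.51).

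Of the 12 enzymes of catecholamine synthesis and breakdown, 2 were higher and 4 lower after MPP in 3D, and in 2D the 3 called were all higher. Without MPP, 3 were higher in 3D than in 2D, TH and DDC among them, and 5 were lower. Across all genes tested, 34.6% were called with MPP in 3D, 34.5% with MPP in 2D and 46.1% between untreated formats. GCH1, which starts the synthesis of the cofactor of TH, rose by 0.41 with MPP in 3D and by 0.43 in 2D (limma adjusted p = 2.28e-04 and 1.49e-04). MAOA, the mitochondrial monoamine oxidase, was 1.27 lower in 3D than in 2D without MPP (limma adjusted p = 2.03e-11), at 1265 ± 114 against 3057 ± 234. The list included DBH, whose sign depends on the scaling.

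The driving forces of the carriers come from ion pumps. Of the 22 tested subunits of the vacuolar proton ATPase, which acidifies vesicles and so powers the SLC18 carriers, 3 were higher and 5 lower after MPP in 3D, and 1 was higher and 8 lower in 2D (medians -0.07 in both). Among all genes tested, 34.6% were called with MPP in 3D and 34.5% in 2D. ATP6V0A4, a membrane subunit best known from kidney, stood out with 674 ± 33.2 in MPP-treated 3D and 99.0 ± 31.7 in MPP-treated 2D, against 3122 ± 378 in untreated 3D and 167 ± 9.08 in untreated 2D cultures. It fell by 2.20 with MPP in 3D (limma adjusted p = 1.47e-09) and was 4.21 higher in 3D than in 2D without MPP (limma adjusted p = 7.68e-15), as SLC18A1 was in direction. Of the 9 tested sodium-potassium ATPase subunits, which keep the sodium gradient for SLC6 carriers, 1 was higher and 2 lower after MPP in 3D, and 1 was higher and 1 lower in 2D. ATP1B1, a beta subunit, fell by 0.78 with MPP in 3D (limma adjusted p = 1.57e-06), 9589 ± 639.7 against 16604 ± 2941, and its change in 2D was 0.16 (limma adjusted p = 0.215).

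Relatives and partners of the carriers were counted in the same way, beside the 34.6% of all genes called with MPP in 3D and 34.5% in 2D. Of 13 other SLC6 carriers, 5 were higher and 3 lower after MPP in 3D, and the 3 called in 2D were all higher. The taurine carrier SLC6A6 was the clearest in 2D, with 1078 ± 39.2 in MPP-treated against 440.2 ± 26.5 in untreated dishes, a rise of 1.29 (limma adjusted p = 2.05e-09). SLC6A17, a vesicular amino acid carrier, rose by 0.66 with MPP in 3D (limma adjusted p = 4.53e-05), and SLC6A8, the creatine carrier, fell by 0.44 (limma adjusted p = 1.51e-05). Of 5 tested vesicular carriers of other transmitters, the 1 called with MPP in either format was SLC18A3, described above. SLC17A7, a vesicular glutamate carrier, was 1.00 lower in 3D than in 2D without MPP (limma adjusted p = 2.56e-06). Of 9 tested proteins that bind or traffic the carriers, 1 was higher and 3 lower after MPP in 3D, and 2 were higher and 2 lower in 2D. Among them HSPA8, a chaperone of clathrin coats, fell by 0.37 in 3D and 0.40 in 2D (limma adjusted p = 8.17e-04 and 3.76e-04).

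Receptors and transcription factors of monoamine neurons completed the lists. Of 8 tested monoamine receptors, 1 was higher and 3 lower after MPP in 3D, and none was called in 2D by limma (1 at an unadjusted p under 0.05, 0 by edgeR and 0 by DESeq2). ADRA2A, an alpha-2 autoreceptor of noradrenergic cells, fell by 1.34 with MPP in 3D (limma adjusted p = 0.00576), at 16.4 ± 7.59 against 43.2 ± 17.8. It had only 12 to 30 reads per library in MPP-treated 3D and 22 to 46 in untreated 3D cultures, with overlapping values. Of 13 noradrenergic transcription factors, 2 were higher and 6 lower after MPP in 3D, and 1 was higher and 6 lower in 2D. HAND1 fell by 1.06 in 3D and by 1.10 in 2D (limma adjusted p = 8.06e-10 and 8.00e-10). ISL1 fell by 0.71 in 3D (limma adjusted p = 2.33e-07) and was 0.88 lower in 3D than in 2D without MPP (limma adjusted p = 3.54e-09). EPAS1, the hypoxia-inducible factor HIF-2 alpha, was 2.18 higher in 3D than in 2D without MPP (limma adjusted p = 2.10e-14), at 25004 ± 1397 against 5531 ± 237. Of 4 tested midbrain dopamine transcription factors, 1 fell with MPP in 3D, and none was called in 2D by limma (0 at an unadjusted p under 0.05, 0 by edgeR and 0 by DESeq2). These counts stand beside the 34.6% of all genes called with MPP in 3D and 34.5% in 2D.

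The genes most like each member were found among 14030 tested genes of mean normalised count 50 or more, by the root mean square difference of centred log2 values over the 16 libraries. This likeness is a description and carries no p. SLC6A2, whose own spread was 2.01, was closest to NPY (0.64), VCAN (0.67) and CD44 (0.70). NPY encodes neuropeptide Y, a peptide that noradrenergic neurons release with noradrenaline, and it averaged 1645 in MPP-treated 3D and 11513 in MPP-treated 2D, against 1308 in untreated 3D and 10764 in untreated 2D cultures. SLC18A1 (own spread 1.64) was closest to NXPH4 (0.18), EPB41L4B (0.39) and SDK2 (0.40), and NXPH4, a neurexin ligand, averaged 244 in MPP-treated 3D and 82.2 in MPP-treated 2D, against 1656 in untreated 3D and 106 in untreated 2D cultures. SLC18A2 (1.08) was closest to BAHCC1 (0.34), IL15 (0.35) and ADGRD1 (0.38). SLC29A4 (0.47) was closest to RIPK1 (0.12), MYO1E (0.14) and EGLN1 (0.14), where EGLN1 encodes an oxygen-sensing prolyl hydroxylase. None of the 3 genes nearest to a member was among the 3 nearest to another member.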

How the data were processed

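The authors' deposited values are a normalised count signal: reads per gene divided by a size factor of each library. The submitters' processing notes name the build GRCh38.p13 and, as tools, STAR, featureCounts, FastQC, DESeq2 and CASAVA 1.8.2, with no settings, annotation or strandedness. All deposited values (100.0%) were whole multiples of a step within 0.01 reads, so whole reads were recovered. Each gene had at least 11 reads over the 16 libraries. Groups and replicate numbers came from titles.

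The test was limma 3.58.1 with trend in R 4.3.3 on log2(value + 1), in 1 fit of 4 groups over 16984 genes, with Benjamini-Hochberg adjustment. It was kept after reads were recovered, and was tested on simulated data. edgeR 4.0.16 and DESeq2 1.42.0 on recovered reads, other scalings, pseudocounts of 0.5 and 5, filters, robust variances, a replicate block and leaving out each library were alternatives. Replicates differed beyond sampling noise: chi-square per degree of freedom was 6.43 or more over 24 within-group pairs. Exon lengths and positions came from GENCODE 29 and promoters from RefSeq (GRCh38.p14); 18522 genes matched GENCODE by symbol and 19827 matched RefSeq by Entrez number. Same-numbered libraries did not deviate together, so numbers were not treated as pairs.

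Members and lists were chosen with earlier results of these data known. Named genes were the members, the other carriers, TH, DBH, at most 2 called genes of smallest p per list and comparison, and the 3 genes most like each member. Some listed genes are not reported here and were left out of the counts.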

Additional observations from a re-analysis of the deposited data

Results flagged for a closer look

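MPP effects that differed between formats were flagged by the test of the difference itself (3D minus 2D, limma, adjusted p under 0.05). Among the members the difference was 0.94 for SLC6A2, -2.23 for SLC18A1, 0.69 for SLC18A2 and -0.76 for SLC29A4. Among other carriers it was -1.34 for SLC22A4, -0.46 for SLC18A3 and -0.76 for SLC29A2. The SLC22A4 call was lost without MPP-treated 3D replicate 3, MPP-treated 2D replicate 2 or untreated 2D replicate 4 (limma adjusted p = 0.0512, 0.0575 and 0.0548). For enzymes it was -1.18 for TH and -2.08 for DDC. For SLC6 relatives it was 0.75 for SLC6A17, -0.39 for SLC6A8 and -1.05 for SLC6A6. For pump subunits it was -1.39 for ATP6V0A4 and -0.93 for ATP1B1. For transcription factors it was 0.48 for EPAS1 and -0.51 for ISL1.

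Single libraries far from the other 3 of their group were flagged next, in normalised counts; chance flags about 1 in 20 groups. In MPP-treated 3D these were 31.5 for SLC47A2, 4220.4 for SLC18A3, 1.81 for SLC18B1 and 30195 for HSPA8. In MPP-treated 2D they were 2110.0 for SLC29A2, 261 for SLC29A3, 1019.9 for SLC6A6, 683 for SLC17A7 and 37.0 for ADRA2A. In untreated 3D they were 11.9 for SLC18B1 and 3761 for SLC29A1, and in untreated 2D 2517 for DDC. None of the 4 members was flagged in this way.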

How the results depend on the processing

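The members kept their direction and call in all 5 comparisons under every alternative, leaving out single libraries included, except SLC18A2 and SLC6A2 with MPP. For SLC18A2 in 2D (0.24), the call was lost with equal nuclear totals (0.20, adjusted p = 0.110) and with edgeR on recovered reads (0.24, adjusted p = 0.0510); over all alternatives the adjusted p ran from 0.00627 to 0.110, and leaving out a library gave 0.18 to 0.28 (adjusted p = 0.0288 to 0.143). SLC6A2 in 3D was called in none and ran from -0.08 to 0.19 without single libraries. DBH reversed under quantile normalisation, to 0.19 with MPP in 3D (limma adjusted p = 0.212), 0.51 with MPP in 2D (0.00166) and 0.10 for 3D against 2D without MPP (0.502). The cause of these losses and reversals was not tested. Gene counts stayed within 1.5 times the reported ones. The share of calls that were higher moved with scaling: with equal library totals it was 70.3% against 51.1% for MPP in 2D, where the median of all genes was 0.12 against 0.02, and 65.9% against 49.0% for MPP in 3D. With equal nuclear totals it was 59.3% for MPP in 3D, 38.3% against 50.2% for 3D against 2D without MPP, and 66.9% against 45.7% for the difference of the effects. Counts of called genes by list, all small, moved by more than 1.5 times in 166 combinations of list, comparison and setting.

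With the replicate block, MPP in 2D called 5675 genes against 5866 without it, and SLC18A2 in 2D kept its call (limma adjusted p = 0.0334). The block changed no call of a member. Of 24 same-numbered pairs, 0 had a correlation of deviations over 0.1 (-0.1145 to 0.08957), and 4 of 16 libraries correlated best with their own number. Depth limits SLC6A2 in 3D, with 80 to 186 reads per library.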
